A study of Glycine soja with 14 samples.

Results

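The earliest sampled response of wild soybean leaves to bicarbonate was measured as the difference between leaves after 0.5 h in 50 mM sodium bicarbonate and leaves at 0 h. It rests on 4 of the 14 arrays of a time course with 7 times, chosen by the labelled time: 2 arrays at 0.5 h and 2 arrays at 0 h. All plants were Glycine soja, the wild relative of cultivated soybean, of line G07256, and were 21 days old at treatment. The 0.5 h plants had been moved into dilute nutrient solution with bicarbonate at pH 8.5, and the 0 h plants were labelled as unstressed. Each array held RNA pooled from the leaves of 3 plants of 1 experiment, and the 2 arrays of a time were labelled as independent biological replicates. No untreated leaves of 0.5 h were analysed here, so bicarbonate, the transfer to fresh solution and the 0.5 h that passed cannot be told apart. In whole leaves, fewer cells of a type and less RNA per cell cannot be told apart either.

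Bicarbonate makes the root medium alkaline, which limits the uptake of iron and phosphate, and its sodium salt also adds sodium. Leaves are known to respond to such stress through calcium signals, protein kinases, hormones such as abscisic acid and jasmonate, and transcription factors of the MYB, NAC, WRKY, bZIP and heat shock families. Chlorophyll and heme are made in the chloroplast by the tetrapyrrole pathway, whose first steps they share.

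Transcript levels were read as scaled intensities of 37593 soybean probe sets, each a set of short probes, some of which were annotated to several genes. Background was the 95th percentile of the 23350 probe sets for other organisms on the same array, and it was 17.5 and 18.0 on the 0.5 h arrays, against 25.3 and 25.9 on the 0 h arrays. Of the soybean probe sets, 75.4 and 74.8% lay above background at 0.5 h, against 68.5 and 68.1% at 0 h. Replicate arrays correlated across probe sets at 0.985 at 0.5 h and 0.965 at 0 h, and the SD of their log2 difference was 0.290 at 0.5 h and 0.439 at 0 h. The leaf label was borne out by its markers: 7 of 7 photosynthesis markers were above background on all 4 arrays, with the chlorophyll-binding protein gene CAB3 at 12296 and 12423 at 0.5 h, against 12369 and 12151 at 0 h. Another of the 7, NDHK, is among the falls described below, at 501 and 486 at 0.5 h, against 3490 and 2978 at 0 h. Of 12 seed storage and inhibitor genes, 10 were above background on none of the 4 arrays, and the highest reached 37.7. Their summed level was 132 and 137 at 0.5 h, against 150.2 and 124 at 0 h. Of 4 nodule genes, 1 was above background on all 4 arrays (NOD33) and only 1 was above it on none. Their summed level was 87.5 and 102 at 0.5 h, against 119 and 114 at 0 h. Array controls also moved: 43 of 48 soybean ribosomal RNA probe sets were lower on both 0.5 h arrays than on both 0 h arrays, with medians of 69.9 and 57.1 at 0.5 h, against 349 and 381 at 0 h. The bacterial control bioB was at 234 and 228 at 0.5 h, against 534 and 590.3 at 0 h. The part of these array-wide shifts in the results that follow was not tested.

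More transcripts fell than rose within 0.5 h. Of the 37593 probe sets, 955 (2.54%) passed the test, 270 of them higher at 0.5 h (0.718%) and 685 lower (1.82%). The test was limma's, fitted to all 14 arrays on log2(value + 16), two-sided, with a Benjamini-Hochberg adjusted p under 0.05. A fold of at least 2 was reached by 78 of the higher and 357 of the lower probe sets, and a fold of at least 4 by 1 higher and 48 lower. The median change of all probe sets was -0.02 log2 and the median SE was 0.19. Without regard to the test, both 0.5 h arrays lay above both 0 h arrays for 23.1% of the probe sets and below them for 27.9%. Of the 23350 probe sets for other organisms, 80 (0.343%) passed the same test, 2 higher and 78 lower. Higher calls made up 28.3% of the soybean calls with the arrays scaled and 44.0% of them with the arrays as deposited. The share higher was 6.21% when 0.5 h replicate 2 was left out, 17.5% when 0 h replicate 2 was, and 3.43% when only the 0.5 h and 0 h arrays entered the fit. The count was 145 when 0.5 h replicate 2 was left out, 349 when 0.5 h replicate 1 was, 382 when 0 h replicate 2 was and 616 when either 24 h array was.

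**Figure D1:**
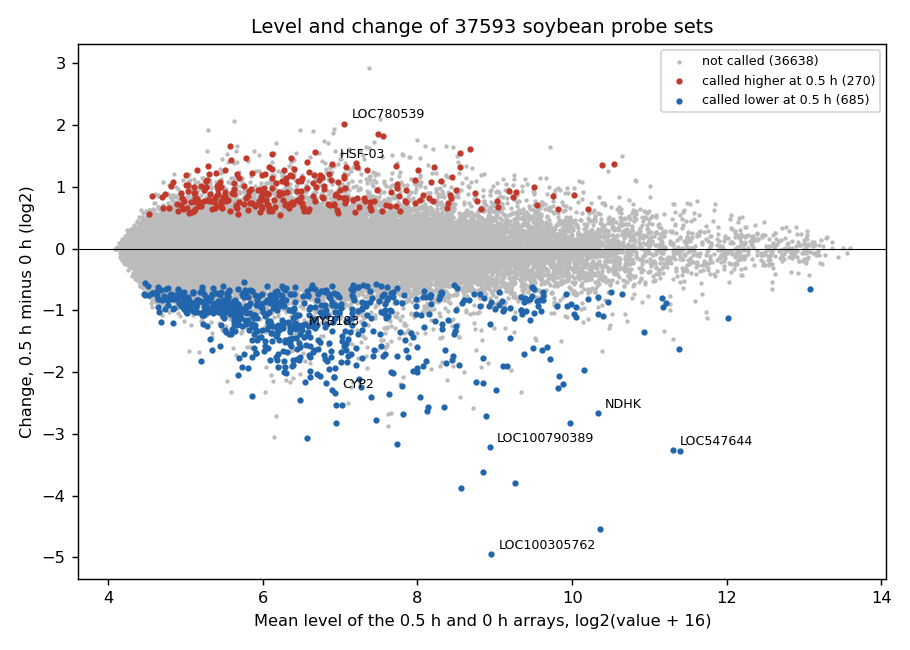
Change at 0.5 h against 0 h (log2, vertical) against the mean log2(value + 16) of the 4 arrays (horizontal) for 37593 soybean probe sets, 1 point each. The 270 probe sets called higher are red and the 685 called lower are blue; the falls reach -4.95 log2 (LOC100305762), and calls of both directions lie across the range of levels.

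The annotated probe sets covered 6029 genes, of which 151 passed the test at their brightest probe set, 26 higher (0.431%) and 125 lower (2.07%). Only 22 of these 151 have a name, and the other 129 are known by a LOC number alone. Of the 955 probe sets called, 630 had no single gene symbol. The genes with a name that also met the rules on background and overlap were 4 that rose and 17 that fell. For each of these 21 genes, both 0.5 h arrays lay on one side of both 0 h arrays, as those rules required.

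**Figure D2:**
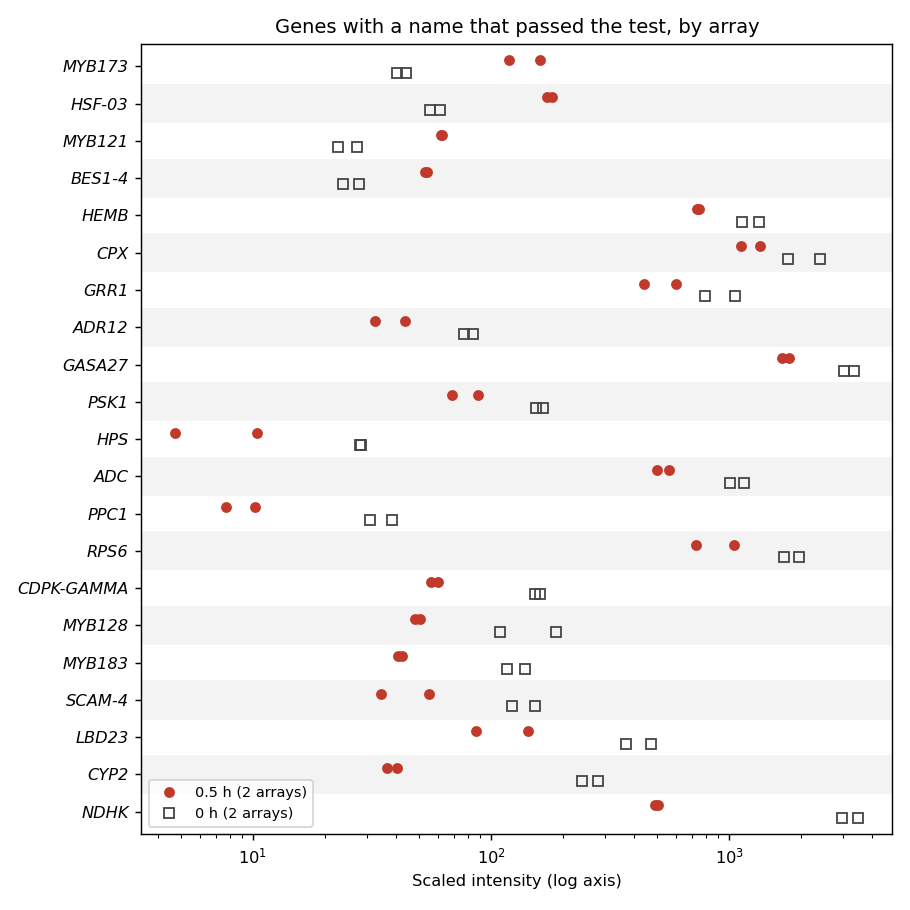
Scaled intensity (log axis) of the 21 genes with a name that passed the test, with the 2 arrays of 0.5 h as red circles above the 2 arrays of 0 h as open squares. MYB173, HSF-03, MYB121 and BES1-4 lie to the right of their 0 h values, and the other 17 genes, from HEMB to NDHK, lie to the left of theirs.

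All 4 named genes that rose encode transcription factors, which are common among the genes with a name. Of those 1003 genes, 65 were in the MYB list, 60 in the bZIP list and 52 in the WRKY list. The 4 were 0.399% of the 1003, beside 0.431% of all 6029 genes called higher. HSF-03, a heat shock factor of the family that switches on chaperone genes, had levels of 172 and 181 at 0.5 h, against 61.0 and 55.5 at 0 h. It rose by 1.37 ± 0.18 log2 (SE, n = 2 arrays per time, limma adjusted p = 0.00251). The 2 replicates of each time were close and the times were far apart. MYB173 was at 159.9 and 119 at 0.5 h, against 44.1 and 40.2 at 0 h, and rose by 1.41 ± 0.32 (adjusted p = 0.0464). MYB121 was at 61.7 and 62.3 at 0.5 h, against 22.7 and 27.4 at 0 h, and rose by 0.93 ± 0.15 (adjusted p = 0.0105). MYB proteins are a large plant family with roles from pigment synthesis to stress responses, and nothing more specific is annotated for these 2. BES1-4, of the family that carries brassinosteroid hormone signals to gene promoters, was at 53.0 and 53.8 at 0.5 h, against 27.9 and 23.9 at 0 h, and rose by 0.73 ± 0.17 (adjusted p = 0.0457). MYB121 and BES1-4 were above background on 1 of the 2 arrays at 0 h. The HSF-03 call held without each array in turn. The MYB121 call ended without 0.5 h replicate 1 (adjusted p = 0.0638) or replicate 2 (0.108). The calls of MYB173 and BES1-4 ended without any 1 of the 4 arrays compared, with adjusted p of 0.0784 to 0.204 for MYB173 and 0.0617 to 0.263 for BES1-4, and without either array of 6 h or 24 h. Without either array of 1 h the MYB173 call ended too (0.0578), as did the BES1-4 call without either array of 3 h (0.0542).

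Genes of the chloroplast's tetrapyrrole pathway and thylakoid were among the falls. HEMB, 5-aminolevulinate dehydratase, which joins aminolevulinate into the first ring of heme and chlorophyll, was at 730.2 and 744 at 0.5 h, against 1135 and 1341 at 0 h. It fell by 0.73 ± 0.15 log2 (limma adjusted p = 0.0294). CPX, coproporphyrinogen oxidase, a later step of the same pathway, was at 1355 and 1125 at 0.5 h, against 1768 and 2401 at 0 h, and fell by 0.73 ± 0.16 (adjusted p = 0.0388). In both genes the 0.5 h arrays lay below both 0 h arrays, by less than 2-fold on average. NDHK, part of the chloroplast NADH dehydrogenase-like complex, which moves electrons around photosystem I, was at 501 and 486 at 0.5 h, against 3490 and 2978 at 0 h. It fell by 2.67 ± 0.44 (adjusted p = 0.0112), or 6.36-fold, and its other probe set fell by 2.24 ± 0.25 (adjusted p = 0.000812).

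The other 11 photosynthesis genes did not pass the test. In the list of 14 genes of photosynthesis and chlorophyll synthesis, the 3 above passed the test as lower and 0 as higher. Of all 6029 genes, 2.07% were called lower. The median change of the list was -0.10, against -0.04 for all 6029 genes. CAB3 (0.01 ± 0.20), the photosystem I subunit gene PSAD (0.04 ± 0.12), PETC (0.08 ± 0.13), a Rieske protein of the cytochrome complex, and the rubisco activase gene RCA14 (0.00 ± 0.13) lay near 0. The levels of CAB3 were close to 12176, the highest mean of any soybean probe set over the 14 arrays. Whether its signal had reached the limit of the arrays was not tested. CHLH, the large subunit of the magnesium chelatase that commits the pathway to chlorophyll, was at 4660.5 and 4912 at 0.5 h, against 5363 and 4830.5 at 0 h, and the times overlapped. GSA1, of an earlier step than HEMB, had 472 and 389 at 0.5 h, against 399 and 1049 at 0 h, so its 2 replicates at 0 h stood further apart than the times did. RCA11, another rubisco activase gene, was at 469 and 406 at 0.5 h, against 575 and 774 at 0 h, and missed the threshold (-0.60 ± 0.16, adjusted p = 0.0729). None of the 3 calls held without 0 h replicate 2 (adjusted p = 0.126 for HEMB, 0.158 for CPX, 0.0509 for NDHK), 0.5 h replicate 1 (0.129, 0.0805 and 0.0596) or 0.5 h replicate 2 (0.199, 0.307 and 0.101). The CPX call also ended without either array of 1 h, 6 h or 24 h (0.0508 to 0.0621), and the list had 2 calls without scaling, 1 with quantile normalization and 5 without 0 h replicate 1.

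In calcium signalling, a kinase and a calmodulin gene fell. CDPK-GAMMA, a calcium-dependent protein kinase that is switched on by calcium binding, was at 56.1 and 59.9 at 0.5 h, against 153 and 161 at 0 h. It fell by 1.22 ± 0.20 log2 (limma adjusted p = 0.00944). SCAM-4, a soybean calmodulin of the divergent class, was at 34.5 and 55.1 at 0.5 h, against 123 and 153 at 0 h, and fell by 1.36 ± 0.30 (adjusted p = 0.0417). Its other probe set, not above background on the 0.5 h arrays, missed the threshold (adjusted p = 0.0868). Among 27 genes for calcium and kinase signalling, these 2 (beside 2.07% of all 6029 genes) were called lower and 0 higher. The median change was -0.21, but -0.04 when 0 h replicate 1 was left out and -0.05 when 0.5 h replicate 1 was. PTI1A, a kinase of the Pti family, lay just outside the threshold with 80.8 and 83.6 at 0.5 h, against 150.2 and 149 at 0 h (-0.76 ± 0.18, adjusted p = 0.0506). SCA1, a calcium-transporting ATPase, was at 171 and 400.0 at 0.5 h, against 554 and 713 at 0 h (-1.21 ± 0.44, adjusted p = 0.159). The conventional calmodulins SCAM-1 (-0.46 ± 0.15), SCAM-2 (-0.38 ± 0.16) and SCAM-3 (-0.08 ± 0.13) did not pass the test. The CDPK-GAMMA call ended without 0 h replicate 2 (adjusted p = 0.0546), 0.5 h replicate 1 (0.0650) or 0.5 h replicate 2 (0.0848). The SCAM-4 call ended without any 1 of the 4 arrays compared (0.0596 to 0.203), without either array of 1 h, 6 h, 12 h or 24 h (0.0508 to 0.0656), and without scaling (0.0551).

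Other transcription factor genes fell. MYB183 was at 40.7 and 42.3 at 0.5 h, against 117 and 139 at 0 h, and fell by 1.32 ± 0.15 log2 (limma adjusted p = 0.00115). MYB128 was at 50.1 and 48.0 at 0.5 h, against 187 and 109 at 0 h, and fell by 1.29 ± 0.27 (adjusted p = 0.0314). LBD23, of the plant family of lateral organ boundaries factors, was at 143 and 86.8 at 0.5 h, against 369.9 and 472 at 0 h. It fell by 1.76 ± 0.29 (adjusted p = 0.0115). LBD23 was the 1 fall among 24 genes of smaller factor families (4.17%), beside 2.07% of all 6029 genes called lower. The 0.5 h arrays were nearly equal for the 2 MYB genes, while MYB128 differed between the 0 h arrays. In the list of 65 MYB genes, 2 were called higher and 3 lower, beside 0.431 and 2.07% of all 6029 genes. MYB185, the third of the lower ones, was at a level not above background. The median change of the 65 was 0.13, but 0.25 when 0.5 h replicate 1 was left out, 0.02 when 0.5 h replicate 2 was and 0.04 when 0 h replicate 2 was. Of the list, 14 genes (21.5%) lay at 0.5 log2 or above, against 117 of 1003 (11.7%) of all genes with a name. Without scaling 3 MYB genes were called higher and 3 lower, and with quantile normalization 3 higher and 2 lower. Leaving out either 0.5 h array gave 0 higher and 1 lower. The MYB183 call held without each array in turn, but not when only the 0.5 h and 0 h arrays entered the fit (adjusted p = 0.0513). The MYB128 call ended without 0 h replicate 1 (0.0894), 0.5 h replicate 1 (0.117) or 0.5 h replicate 2 (0.215), and that of LBD23 without 0 h replicate 2 (0.0740) or 0.5 h replicate 2 (0.141).

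Among the genes with a name that passed the test, the widest fall after that of NDHK was in CYP2, a cyclophilin, one of the enzymes that turn peptide bonds at proline and help proteins fold. CYP2 was at 40.3 and 36.5 at 0.5 h, against 280.4 and 241 at 0 h. It fell by 2.34 ± 0.24 log2, or 5.07-fold on that scale, which understates the falls of dim genes (limma adjusted p = 0.000629). It was the 1 cyclophilin of 12 that passed the test (8.33%), beside 2.07% of all 6029 genes called lower. The median of the 12 was -0.13, with a range of -0.26 to -0.07 when single arrays of the comparison were left out. The call held under every setting in which CYP2 was tested, including each array left out in turn.

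ADC, GASA27 and ADR12 also fell. ADC, which by its symbol encodes arginine decarboxylase, a first enzyme of polyamine synthesis, was at 500.3 and 560.1 at 0.5 h, against 1012 and 1150.4 at 0 h. It fell by 1.01 ± 0.18 log2 (limma adjusted p = 0.0182). Its 4 other probe sets were lower too, at -0.34 to -0.65, and none of the 4 passed the test. GASA27, of a family of small cysteine-rich peptides that respond to gibberellin, was at 1787 and 1662 at 0.5 h, against 3035 and 3356 at 0 h, and fell by 0.88 ± 0.19 (adjusted p = 0.0343). Its second probe set did not move with it (0.06 ± 0.35). GASA27 was the 1 call among 31 genes for gibberellin, cytokinin, auxin and ethylene (3.23%), beside 2.07% of all 6029 genes called lower. ADR12, named as a gene that auxin turns down, was at 32.6 and 43.7 at 0.5 h, against 84.3 and 76.9 at 0 h, and fell by 0.84 ± 0.18 (adjusted p = 0.0384). The ADC call ended without 0 h replicate 2 (adjusted p = 0.0905), 0.5 h replicate 1 (0.109) or 0.5 h replicate 2 (0.107). The calls of GASA27 and ADR12 ended without any 1 of the 4 arrays compared (0.0532 to 0.247 and 0.0845 to 0.198), without either array of 24 h and without scaling, and also without either array of 6 h for GASA27 (0.0539) and of 1 h for ADR12 (0.0527).

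PPC1 and HPS fell to levels not above background. PPC1, a phosphoenolpyruvate carboxylase, which fixes bicarbonate itself onto phosphoenolpyruvate, was at 10.2 and 7.72 at 0.5 h, against 31.0 and 38.2 at 0 h. It was at least 1.5-fold lower at 0.5 h on the log2(value + 16) scale, taking the background as the least value a 0.5 h array could show (limma adjusted p = 0.0102). HPS, by its symbol a hydrophobic seed protein, was at 10.4 and 4.73 at 0.5 h, against 28.2 and 28.3 at 0 h, at least 1.31-fold lower (adjusted p = 0.0374). The 0 h levels of HPS were themselves only just above the background of 25.3 and 25.9. Among 9 genes for phosphoenolpyruvate carboxylases and their activating kinases, PPC1 alone passed the test (11.1%), beside 2.07% of all 6029 genes called lower. PEPC4 was at 243 and 238 at 0.5 h, against 134 and 141 at 0 h (0.74 ± 0.30, adjusted p = 0.195), and the kinase gene PPCK3 was at 1693 and 1384 at 0.5 h, against 1554 and 412 at 0 h. The PPC1 call ended without 0 h replicate 2 (0.0648) or 0.5 h replicate 2 (0.128), and that of HPS without any 1 of the 4 arrays compared (0.0723 to 0.299) or either array of 1 h or 24 h (0.0515 and 0.0581).

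PSK1, GRR1 and RPS6 completed the named falls. PSK1 was at 88.6 and 68.5 at 0.5 h, against 165 and 155 at 0 h, and fell by 0.90 ± 0.21 log2 (limma adjusted p = 0.0451). GRR1 was at 437 and 599 at 0.5 h, against 1055 and 795 at 0 h, and fell by 0.82 ± 0.19 (adjusted p = 0.0482), as did its other probe set by 0.83 ± 0.16 (adjusted p = 0.0256). RPS6 was at 1049 and 726 at 0.5 h, against 1706 and 1975 at 0 h, and fell by 1.06 ± 0.18 (adjusted p = 0.0150). Its 3 other probe sets were split: 1 fell by 1.70 ± 0.18 (adjusted p = 0.000629), while the other two differed by 0.54 and 0.37 and did not pass the test. The RPS6 call ended without 0 h replicate 2 (0.0827) or 0.5 h replicate 2 (0.171). Those of PSK1 and GRR1 ended without any 1 of the 4 arrays compared (0.0912 to 0.322 and 0.0563 to 0.243), without scaling (0.0684 and 0.0652), and without either array of 6 h, 12 h or 24 h, and GRR1 also without either array of 1 h or 3 h (0.0642 and 0.0584).

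Genes known by a LOC number, for which the annotation gives no function, showed the widest changes. LOC100305762 was at 113 and 46.0 at 0.5 h, against 2765 and 2737 at 0 h, a fall of 4.95 ± 0.36 log2 (limma adjusted p = 0.000166). LOC547644 was at 1372 and 460.04 at 0.5 h, against 7266 and 8378 at 0 h, and fell by 3.27 ± 0.35 (adjusted p = 0.000719). LOC100790389 was at 217 and 94.0 at 0.5 h, against 1422 and 1529 at 0 h, and fell by 3.22 ± 0.29 (adjusted p = 0.000401). For each of these 3 genes 0.5 h replicate 2 was the lowest of the 4 arrays, well below 0.5 h replicate 1. The 18S ribosomal RNA control had the same order, at 62.5 and 25.4 at 0.5 h, against 475 and 422 at 0 h. Over the 7 times, this control and the 3 genes all had their lowest mean at 0.5 h and their highest at 6 h. Any link between the 3 genes and the ribosomal RNA shift was not tested. Probe sets of these genes disagreed. The 2 others of LOC100305762 were not above background on any of the 4 arrays. Of the 3 others of LOC547644, 1 fell by 1.62 ± 0.16 (adjusted p = 0.000579) and 2 did not pass, and the 3 others of LOC100790389 did not pass either (-0.34 to 0.49). LOC100811344 (-2.45 ± 0.47), LOC100777747 (-2.28 ± 0.30) and LOC100527251 (-2.17 ± 0.18) were the next falls. The 2 other probe sets of LOC100777747 did not pass the test and disagreed in sign (0.18 ± 0.13 and -0.38 ± 0.14). The first of them was at 769 and 779 at 0.5 h, against 713 and 651 at 0 h. LOC100811344 was at 21.1 and 22.9 at 0.5 h, against 247 and 149 at 0 h, close to the background at 0.5 h. Its call ended without any 1 of the 4 arrays compared (0.0546 to 0.168), and that of LOC100777747 without 0.5 h replicate 2 (0.0531).

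The 6 largest rises among LOC genes lay between 1.28 and 2.03 log2. LOC780539 was at 223 and 284 at 0.5 h, against 46.8 and 53.0 at 0 h, and rose by 2.03 ± 0.26 (limma adjusted p = 0.00261). LOC100787173 was at 239.9 and 234 at 0.5 h, against 91.6 and 84.8 at 0 h, and rose by 1.28 ± 0.14 (adjusted p = 0.000794). Both calls held under every setting run. LOC100783910 (1.86 ± 0.34), LOC100806189 (1.57 ± 0.31), LOC100819561 (1.38 ± 0.24) and LOC100779783 (1.38 ± 0.29) also rose. The second probe set of LOC100819561 rose alongside, by 1.32 ± 0.23 (adjusted p = 0.0149). Leaving out 0.5 h replicate 2 ended these 4 calls (adjusted p = 0.165, 0.217, 0.170 and 0.278 in the order of the last 4 genes), as did leaving out 0 h replicate 2 (0.106, 0.0938, 0.0604 and 0.137). That of LOC100783910 also ended without 0.5 h replicate 1 (0.0885), that of LOC100806189 without 0 h replicate 1 (0.0618), and that of LOC100779783 without 0.5 h replicate 1 (0.0621) or either array of 24 h (0.0529).

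Probe sets with no gene symbol, or with several, held 630 of the 955 calls. Among those with none, the 2 with the largest rises were GmaAffx.60673.1.S1_at (1.83 ± 0.30 log2, limma adjusted p = 0.0117) and GmaAffx.87045.1.S1_at, with 56.9 and 83.4 at 0.5 h, against 9.68 and 11.9 at 0 h, which is below background, so that the rise was at least 2.05-fold (adjusted p = 0.000788). The 2 with the largest falls were GmaAffx.32146.1.A1_at, at 303 and 218 at 0.5 h against 6193 and 6446 at 0 h (-4.54 ± 0.83, adjusted p = 0.0193), and GmaAffx.89772.42.S1_x_at, at 120.7 and 55.5 at 0.5 h against 1313 and 1574 at 0 h (-3.88 ± 0.30, adjusted p = 0.000268). These 4 were not tested with single arrays left out.

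Allene oxide synthase and cyclase genes of jasmonate synthesis lay below their 0 h levels on both 0.5 h arrays, but none passed the test. The jasmonate list of 15 had 0 calls and a median change of -0.34, with 6 members above 0 and 9 below. In it 5 members (33.3%) lay at -0.5 log2 or below, against 10.2% of all genes with a name. Those 5 were all the allene oxide synthase and cyclase genes of the list, enzymes that act one after the other. AOC3 was at 132 and 164 at 0.5 h, against 779.9 and 920.4 at 0 h (-2.40 ± 0.82, limma adjusted p = 0.138), and its other probe set differed by -1.94 ± 0.82. AOC4 was at 19.7 and 53.9 at 0.5 h, against 125 and 203 at 0 h, and AOC6 was at 142 and 96.2 at 0.5 h, against 272 and 354 at 0 h. AOS1 was at 33.9 and 48.0 at 0.5 h, against 94.2 and 114 at 0 h, and AOS2 was at 65.9 and 142 at 0.5 h, against 365 and 275 at 0 h. In all 5 both 0.5 h arrays lay below both 0 h arrays, as they did for 27.9% of all probe sets, and adjusted p was 0.138 to 0.228. The lipoxygenases VLXB, LOXB1 and VLXC, whose products feed the pathway, lay at 0.06, 0.18 and 0.28. AOC3 passed the test in a fit of the 0.5 h and 0 h arrays alone (adjusted p = 0.0326) and without either array of 3 h (0.0283).

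**Figure D3:**
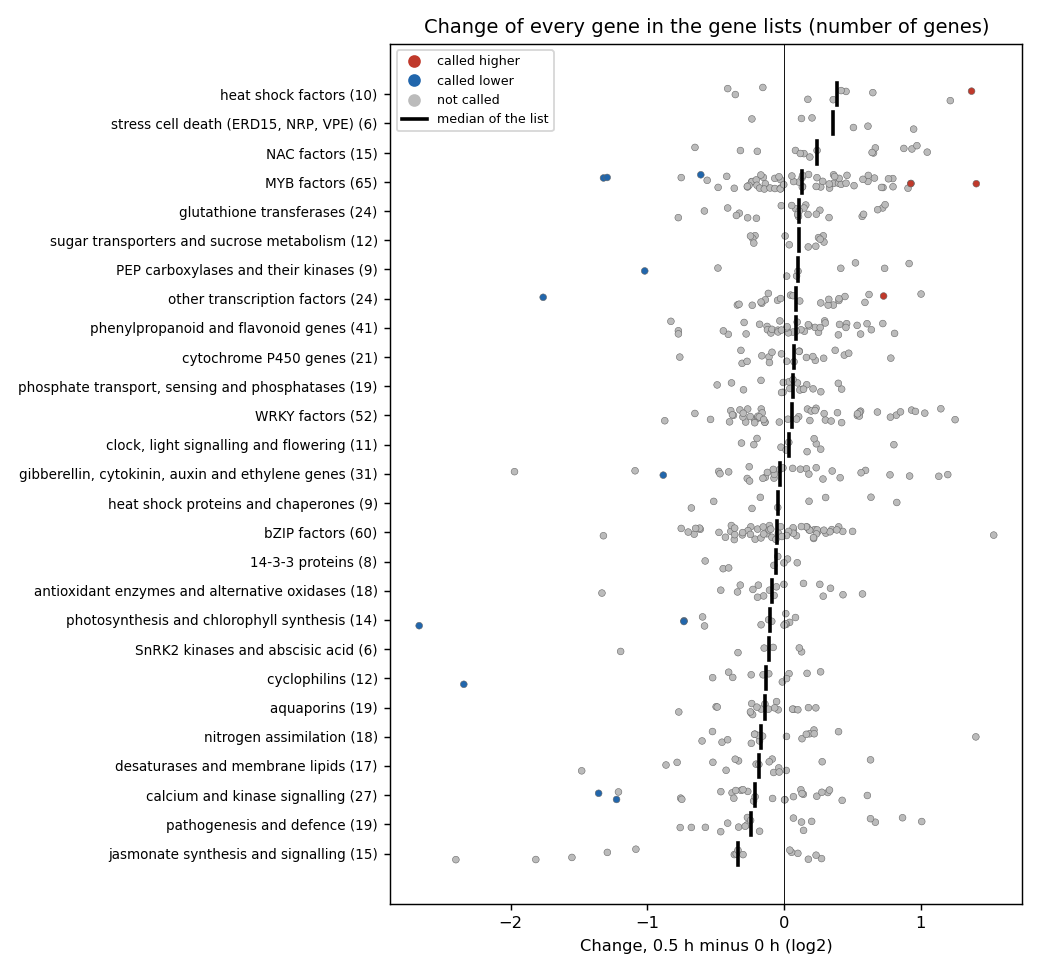
Change at 0.5 h against 0 h (log2, horizontal) of every gene in 27 gene lists, 1 point per gene, with list sizes in parentheses, called genes in colour and a black bar at each median. Medians run from -0.34 (jasmonate) to 0.39 (heat shock factors), and calls lie in 8 of the lists: MYB factors, heat shock factors, other transcription factors, calcium and kinase signalling, photosynthesis, phosphoenolpyruvate carboxylases, cyclophilins, and gibberellin, cytokinin, auxin and ethylene genes.

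NAC and WRKY transcription factor genes gave no calls and varied widely between arrays. Of 15 NAC genes 0 were called, the median was 0.24, and 7 (46.7%) lay at 0.5 log2 or above, against 11.7% of all genes with a name. NAC51 had the lowest p, at 50.0 and 76.4 at 0.5 h, against 22.9 and 26.8 at 0 h (0.94 ± 0.24, limma adjusted p = 0.0697). NAC12 was at 145 and 357 at 0.5 h, against 112 and 93.7 at 0 h, and NAC018 was at 299 and 831 at 0.5 h, against 296 and 206 at 0 h. In both the excess over 0 h came mostly from 0.5 h replicate 2. WRKY46 had the same form, at 32.5 and 172 at 0.5 h, against 20.7 and 27.8 at 0 h (1.25 ± 0.49, adjusted p = 0.183). Of 52 WRKY genes, 0 were called and 14 (26.9%) lay at 0.5 or above, while the median was 0.06 and ran from -0.05 to 0.15 when single arrays of the comparison were left out. WRKY34 lay lowest, at 35.0 and 37.6 at 0.5 h, against 69.5 and 91.0 at 0 h (-0.87 ± 0.21, adjusted p = 0.0578), and passed without either array of 1 h (0.0367). Without 0.5 h replicate 1, 2 NAC genes and 1 WRKY gene were called higher, and the NAC median was 0.85, against 0.05 without 0.5 h replicate 2.

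Heat shock genes other than HSF-03 gave 0 calls at their brightest probe set. Among 10 heat shock factors the median was 0.39, but -0.11 without 0 h replicate 2. HSF-08 was at 272 and 126 at 0.5 h, against 152 and 29.1 at 0 h, and the small heat shock protein gene HSP23.9 was at 588 and 595 at 0.5 h, against 611 and 228 at 0 h. In both the 0 h replicates differed from each other by more than the times did on average. HSP90A1, a cytosolic chaperone, was at 166 and 87.6 at 0.5 h, against 64.3 and 58.8 at 0 h (0.83 ± 0.26, limma adjusted p = 0.114). Of its 2 other probe sets, 1 rose by 1.28 ± 0.23 (adjusted p = 0.0187) and 1 differed by 1.09 ± 0.27 (adjusted p = 0.0590). The endoplasmic reticulum chaperones BIP4 (-0.68 ± 0.24, adjusted p = 0.147) and BIP2 (-0.51 ± 0.25, adjusted p = 0.268) lay below 0.

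Abscisic acid and transport genes had no calls. SPK-1, a kinase of the SnRK2 family that carries abscisic acid and osmotic signals, was at 19.9 and 24.8 at 0.5 h, against 69.0 and 74.4 at 0 h (-1.19 ± 0.33, limma adjusted p = 0.0820). The replicates were close, and SPK-1 passed without either array of 3 h (adjusted p = 0.00806). BZIP50 had the lowest p of 60 bZIP genes, at 97.0 and 62.9 at 0.5 h, against 159 and 302 at 0 h (-1.32 ± 0.32, adjusted p = 0.0545), and passed without 0 h replicate 1 (0.0265) or either array of 24 h (0.0489). ACCC-3 had the lowest p of 17 desaturase and membrane lipid genes (-0.78 ± 0.20, adjusted p = 0.0612), and 14 of the 17 lay below 0; it passed without 0 h replicate 1 (0.0185). Of 19 aquaporins 14 lay below 0 with a median of -0.14, which was -0.31 when 0.5 h replicate 1 was left out and -0.02 when 0 h replicate 2 was. PIP1-1, a water channel of the plasma membrane, differed by -0.50 ± 0.24 (adjusted p = 0.278).

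The remaining lists likewise had 0 calls. NRP-A, of a soybean family of cell death genes, was at 749 and 1104 at 0.5 h, against 676 and 512 at 0 h (0.61 ± 0.27, limma adjusted p = 0.223), and LCL3, a clock gene, was at 213 and 216 at 0.5 h, against 145 and 92.4 at 0 h (0.80 ± 0.23, adjusted p = 0.0966). KTI-3, a trypsin inhibitor, was at 1038 and 659.9 at 0.5 h, against 552 and 360.4 at 0 h (0.87 ± 0.23, adjusted p = 0.0750), and the catalase CAT1 was at 419 and 454 at 0.5 h, against 326 and 254 at 0 h (0.58 ± 0.17, adjusted p = 0.0986). LCL3 and KTI-3 passed without 0 h replicate 1 (adjusted p = 0.0474 and 0.0361). SGF14f, a 14-3-3 protein that binds phosphorylated partners, missed the threshold at its brightest probe set (-0.58 ± 0.20, adjusted p = 0.151) and fell at the other (-0.86 ± 0.18, adjusted p = 0.0343). CHI1B1, a chalcone isomerase of flavonoid synthesis, also missed the threshold at its brightest probe set (-0.77 ± 0.22, adjusted p = 0.0905). Another of its probe sets fell (-0.60 ± 0.13, adjusted p = 0.0426). The rest did not pass (-0.02 ± 0.22 and -0.22 ± 0.26), and the first of these was not above background. SGF14f passed without 0 h replicate 1 (0.0438), and CHI1B1 without either array of 3 h (0.0254). The lowest p of the cytochrome P450, glutathione transferase, nitrogen, sugar and phosphate lists belonged to CYP94D24 (adjusted p = 0.0703), GSTU43 (0.0759), NRT2 (0.162), SWEET13 (0.466) and PHR20 (0.295).

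Where a called gene had several probe sets, most of the others shared its sign, but few passed the test. Most calls were falls, and of all 6029 genes 3293 lay below 0 and 2736 above. Of the 151 called genes, 45 had other probe sets, 71 in all, of which 54 had the sign of the call, 8 passed the test in the same direction and 0 in the opposite one.

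The 0.5 h leaves were also set directly against the leaves at 1 h, which shares the 0.5 h arrays with the first comparison. In this comparison 1410 probe sets (3.75%) passed, 514 higher at 0.5 h (1.37%) and 896 lower (2.38%), and 528 by at least 2-fold. Without scaling the share higher was 59.8%, against 36.5% with it, so the scaling decided which direction had the more calls. That share was 7.89% when 0.5 h replicate 2 was left out and 21.1% when 1 h replicate 2 was. CYP2 differed between 0.5 h and 1 h by -2.23 log2 (limma adjusted p = 0.00149), with 1 h levels of 230.1 and 247, and MYB183 by -1.08 (adjusted p = 0.00520). ADR12 (-0.96, adjusted p = 0.0235), RPS6 (-1.22, 0.00797), HEMB (-0.65, 0.0406), CPX (-0.69, 0.0416) and PSK1 (-0.83, 0.0493) were lower too. PPC1 also passed as lower (adjusted p = 0.0307), but it was not above background at 0.5 h and no size is given. NDHK (-1.02, adjusted p = 0.186), LBD23 (-0.17, 0.770), CDPK-GAMMA (-0.41, 0.234) and SCAM-4 (-0.84, 0.126) did not pass against 1 h, nor did HSF-03 (0.52, 0.111), MYB173 (0.13, 0.845), MYB121 (0.17, 0.541) or BES1-4 (0.67, 0.0501). All of these genes were chosen on the same 0.5 h arrays, so passing against 1 h as well is partly built in and is no separate result. Of the LOC genes above, 3 of the 6 that rose were also higher at 0.5 h than at 1 h and 5 of the 6 that fell were lower. Among them were LOC100787173 (1.35, adjusted p = 0.00125), LOC100305762 (-3.52, 0.00113) and LOC100527251 (-1.63, 0.00147). These last 3 and CYP2 passed under every setting in which they were tested. The other 5 LOC calls against 1 h did not. When 1 h replicate 2 was left out all 5 ended: LOC100819561 (0.0899), LOC100779783 (0.141), LOC547644 (0.0862), LOC100790389 (0.177) and LOC100777747 (0.169). When 0.5 h replicate 2 was left out 4 of them ended, with LOC547644 the exception. When 1 h replicate 1 was left out 4 ended, with LOC100777747 the exception. LOC100779783 also ended when 0.5 h replicate 1 was left out, and its adjusted p over the 4 arrays compared was 0.0620 to 0.326. It and LOC100790389 ended without either array of 6 h or 24 h as well. The MYB183 and RPS6 calls against 1 h ended without 0.5 h replicate 2 (0.0726 and 0.117) or 1 h replicate 2 (0.0620 for both), and the other 5 ended without any 1 of the 4 arrays compared, with adjusted p up to 0.354. The count of probe sets was 76 and 128 when replicate 2 of 0.5 h or of 1 h was left out, and 491 and 519 when replicate 1 of 0.5 h or of 1 h was. It was 824 when either 6 h array was left out, 700 when either 24 h array was, and 2483 when either 0 h array was.

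Followed over the whole course, the changes at 0.5 h were followed by different later levels, given here as mean log2(value + 16) and described without a test. CYP2 stood at 8.11 at 0 h, 5.77 at 0.5 h, 7.99 at 1 h, 8.05 at 3 h, 7.79 at 6 h, 7.07 at 12 h and 7.97 at 24 h, so 0.5 h was its lowest time. HEMB stood at 10.29, 9.56, 10.20, 10.05, 10.11, 9.62 and 10.11 at the same 7 times, with 0.5 h and 12 h low. CPX was again near its 0 h level at 1 h (11.02 at 0 h, 10.29 at 0.5 h, 10.98 at 1 h) and lowest at 12 h (10.24). NDHK was also low at both 0.5 h (8.99) and 12 h (8.96), with 11.12 at 3 h between them, although its 3 h replicates lay far apart. LBD23 stayed low, at 8.76 at 0 h, 7.0 at 0.5 h, 7.17 at 1 h and 6.00 at 6 h. HSF-03 stood at 6.21 at 0 h, 7.59 at 0.5 h, 7.07 at 1 h, 6.61 at 3 h, 5.97 at 6 h, 7.85 at 12 h and 8.19 at 24 h. MYB173 and LOC780539 had the same form, high at 0.5 h, low at 3 and 6 h and high at 12 and 24 h. LOC100305762 stood at 11.43 at 0 h, 6.48 at 0.5 h, 10.01 at 1 h and 12.24 at 6 h.

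**Figure D4:**
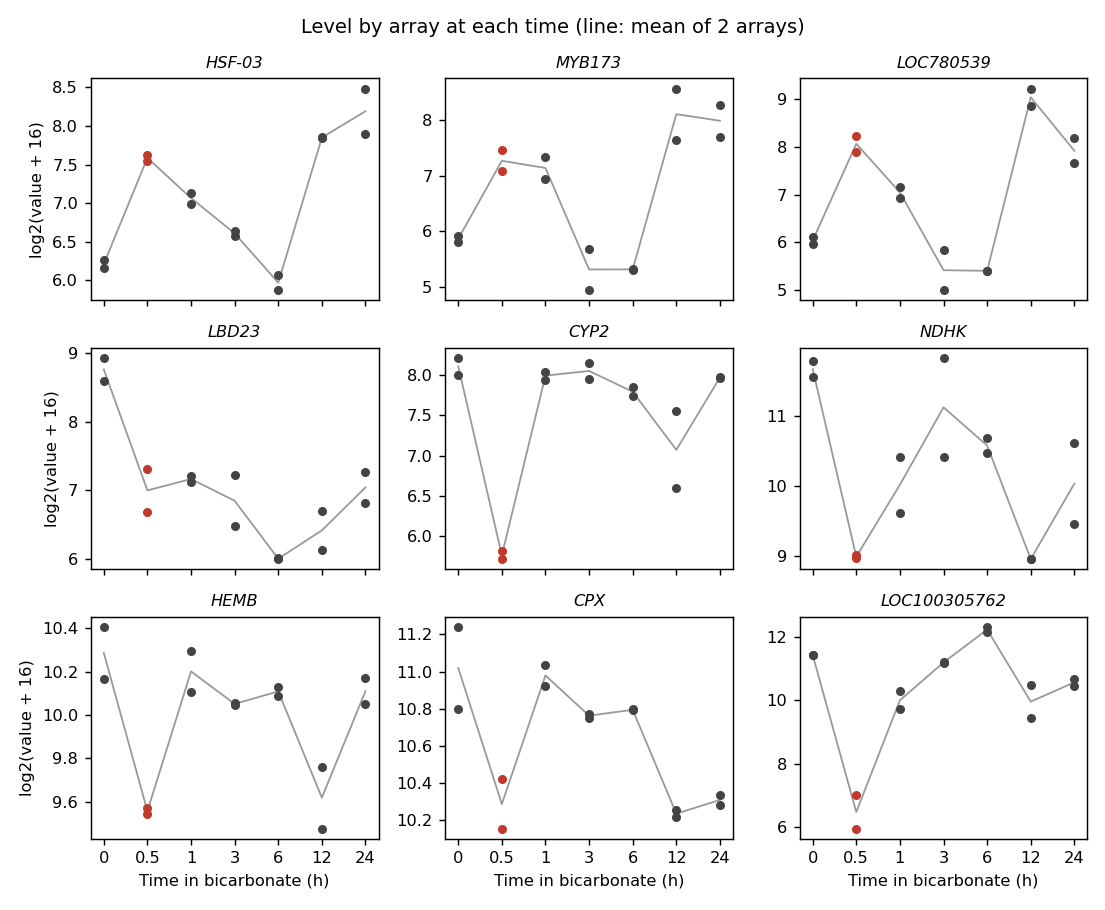
Level (log2(value + 16)) on each array against time in bicarbonate for 9 genes, with the 0.5 h arrays in red and a line through the mean of the 2 arrays; the times are evenly spaced and each panel has its own axis, which does not start at 0. CYP2, HEMB and LOC100305762 are lowest at 0.5 h, LBD23 stays below its 0 h level throughout, and HSF-03, MYB173 and LOC780539 are high at 0.5, 12 and 24 h.

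Over all called probe sets the later medians were nearer to 0 than at 0.5 h, which is where they were chosen. The 270 higher ones had a median change from 0 h of 0.85 at 0.5 h, 0.18 at 1 h, 0.45 at 3 h, 0.28 at 6 h, 0.58 at 12 h and 0.60 at 24 h. The 685 lower ones had -1.02 at 0.5 h, -0.23 at 1 h, -0.50 at 3 h, -0.36 at 6 h, -0.80 at 12 h and -0.59 at 24 h. All of these share the 0 h arrays.

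The lower calls were spread unevenly over the probe set numbers of the array, a grouping made after the values were seen and with no annotated meaning. Of the 4213 soybean probe sets with a GmaAffx number of 85000 or more, 259 were called lower at 0.5 h (6.15%) and 40 higher (0.949%). Of the other 33380, 426 were called lower (1.28%) and 230 higher (0.689%). The numbers of 85000 or more therefore held 37.8% of the lower calls. Against 1 h, 6.53% of them were lower at 0.5 h, and 1.86% of the others. CYP2, MYB183, PSK1, ADC, BES1-4, LOC100811344, LOC100777747 and LOC100527251 are measured by such probe sets, and what distinguishes these probe sets was not tested.

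**Figure D5:**
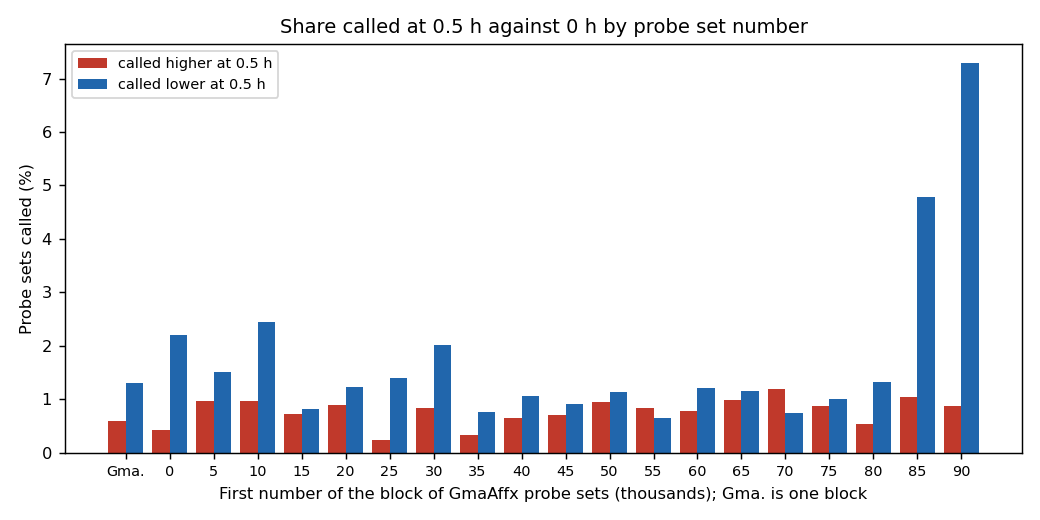
Percentage of soybean probe sets called higher (red) and lower (blue) at 0.5 h against 0 h, by block of GmaAffx probe set numbers, with all Gma. probe sets as 1 block at the left. The last 2 blocks, from 85000 upward, have the highest share of lower calls, 4.77 and 7.28%.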

How the data were processed

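Leaf RNA of 14 samples was hybridised to 1-colour Affymetrix soybean arrays, and the authors deposited a table of linear intensity values, 1 for each probe set on each array. How they were summarised or normalized is not given in the sources used here. Each array has 61170 probe sets, of which the 37593 soybean ones were tested, and the 23350 for other organisms gave the background. Arrays were brought to the same soybean median, 56.4, and values were taken as log2(value + 16), so log2 changes understate those of dim genes. With limma 3.58.1 in R 4.3.3, 7 group means were fitted to 14 arrays (lmFit, eBayes), with 7 residual and 4.24 prior degrees of freedom, and contrasts of 0.5 h against 0 h and against 1 h were adjusted by Benjamini-Hochberg over all soybean probe sets. The fit was tested on simulated data. The SE of a change rests on the spread within all 7 times, and n = 2 limits the precision.

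Symbols came from the array's public annotation, which can be old: 8677 soybean probe sets had 1 symbol, 370 more than 1, and 28546 none. None of these genes could be matched to the Glycine soja gene table used here, so no positions or sequences are given. A gene was its probe set with the highest mean. Named were genes with a name, or the 6 largest rises and falls among LOC genes, that passed the test, were above background on at least 1 group and did not overlap between times, and the lowest p of each list without one. Lists were patterns of symbols, trimmed after the annotation was seen. The comparison, members and lists were chosen with earlier results of these data known. Other genes described beside a list were chosen after their values were seen. Replicate numbers were not used as pairs in the main fit. The correlations of same-numbered deviations over 21 pairs of times were -0.22 to 0.23, and 4 were above 0.1. They were -0.16 for 0.5 h with 0 h and 0.19 for 0.5 h with 1 h, and they do not decide whether arrays were paired. Alternatives were other scalings, pseudocounts, filters and fits, and each array left out.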

Additional observations from a re-analysis of the deposited data

Results flagged for a closer look

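Bacterial control transcripts, which are outside the soybean measurement, were higher at 0.5 h for 4 families that are commonly spiked into RNA before labelling. The ratio of 0.5 h to 0 h was 1.84 for dap, 1.86 for lys, 1.70 for phe and 1.62 for thr, with both 0.5 h arrays above both 0 h arrays in each family. The 4 families commonly added at hybridisation were lower, with ratios of 0.411 for bioB, 0.419 for bioC, 0.498 for bioD and 0.783 for cre. Whether these controls were added in this way here is not given in the sources used here, and their part in the gene changes was not tested.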

How the results depend on the processing

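Of 33 named calls against 0 h, 7 held under every setting in which they were tested: CYP2, HSF-03, LOC780539, LOC100787173, LOC100305762, LOC100790389 and LOC100527251. No named gene changed direction under any setting run. The count of 955 probe sets became 620 with log2(value + 1), 175 with only the 2 groups compared, 230 at a threshold of 0.01, 435 with a fold of at least 2 as well, and 407 outside the numbers of 85000 or more, a setting chosen after seeing the data. For 0.5 h against 1 h the count of 1410 became 598, 267, 185, 528 and 667 under the same settings. Leaving out 1 array gave 145 to 1258 against 0 h and 76 to 2483 against 1 h, where a lone array was assumed to vary like the other groups. The share higher was 28.3% against 0 h and 36.5% against 1 h, and it was 44.0 and 59.8% without scaling. With the replicate block, which pairs arrays by number only, 725 and 1009 probe sets were called and 7 of the 33 named calls ended. For causes, fewer arrays, a stricter threshold or fewer probe sets are part of the settings themselves, and for the pseudocount the cause was not tested. Dim genes, such as PPC1 and HPS at 0.5 h, have only a bound.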
